A study of Mus musculus with 292 samples.

Results

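Genes for the receptors of smell, of pheromone detection and of taste were examined across the brains of F2 mice. The members were all genes whose annotated symbol begins with Olfr, Vmn1r, Vmn2r, V1r, V2r, Taar, Tas1r or Tas2r, and each was represented by its probe with the largest SD across mice. This gave 302 of the 11639 named genes on the array, read by 438 probes. They comprised 263 odorant receptors (Olfr), 19 vomeronasal receptors of type 1 (Vmn1r), 14 of type 2 (Vmn2r), 2 trace amine receptors (Taar), 3 sweet and umami taste receptors (Tas1r) and 1 bitter taste receptor (Tas2r). The gene table of the mouse assembly GRCm38.p6 holds 2135 genes with such a symbol, so the array covered a part of the repertoire. Of the members, 75 lay on chromosome 2, 61 on chromosome 7 and 30 on chromosome 9.

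The mice were 292 F2 animals of both sexes bred from C57BL/6J and C3H/HeJ, both inbred, by crosses in both directions. All had eaten chow with 4% fat until week 8, then for 12 weeks a Western diet (42% fat, 0.15% cholesterol), and were killed at 20 weeks of age after a fast of 12 h. The labels name the tissue as brain, without a region. Each mouse was hybridised once, in Cy3, against a Cy5 pool made from equal portions of all the samples, so the mice formed a single group and the pool was the only reference. Sex and direction of the cross of each mouse were not used here.

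Odorant receptors are G protein-coupled receptors of the sensory neurons in the nose, where each neuron is known to express a single receptor gene from a single allele. They signal through the G protein subunit encoded by Gnal, the adenylate cyclase Adcy3 and the cyclic nucleotide-gated channel with the subunit Cnga2. Vomeronasal receptors act in the vomeronasal organ through the channel Trpc2, most trace amine receptors detect volatile amines, and taste receptors act in taste buds through Gnat3, Plcb2 and Trpm5. The cell bodies of the olfactory and vomeronasal sensory neurons lie outside the brain, and their axons end in the main and accessory olfactory bulb. Brain tissue without the nose therefore holds few of the cells known to express most of these receptors.

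A value here is the log10 ratio of a mouse to the pool, so that 0 means equal to the pool and 0.301 is a 2-fold excess. The base and the sign are not stated in the labels. The base was taken as likely from the limits of the table, and the sign from pituitary hormone genes, which do not settle the base. Every fold below rests on that reading. The ratios carry no level, and signal intensities were not used, so whether a receptor probe stood above background in any mouse was not tested, nor could the labelled tissue be checked by marker levels. The arrays fell into 3 sets that differ in the probes missing from the table, called batches A (74 arrays), B (77 arrays) and C (141 arrays) below. No label names them as batches. B was the set of 77 arrays with a variant wording of the description, and C held mouse numbers 213 to 362 while A and B held 51 to 212, so a technical batch and a group of animals cannot be told apart. The SD over all probes of an array, called its spread below, ran from 0.0437 to 0.199, and 13 arrays had a spread over 0.1. Each animal gave 1 array, and biological and hybridisation differences between mice cannot be told apart.

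Start-site windows of 4 receptor genes are shown because they belong to the 2 pairs of adjacent receptor genes whose ratios moved together most closely across mice. Each window is 300 bases long, 250 before and 50 after the first base of the gene model, from RefSeq on GRCm38.p6, written 5′ to 3′ along the gene's strand. Capitals mark the motif TAATTA, a core site of homeodomain proteins, and the start codon ATG where it is the first codon of the gene model. The window of Olfr1446 is chr19:12890526-12890825 on the minus strand, that of Olfr1447 is chr19:12901729-12902028 on the minus strand, that of Olfr1097 is chr2:86892114-86892413 on the minus strand and that of Olfr1098 is chr2:86923481-86923780 on the minus strand.
Olfr1446: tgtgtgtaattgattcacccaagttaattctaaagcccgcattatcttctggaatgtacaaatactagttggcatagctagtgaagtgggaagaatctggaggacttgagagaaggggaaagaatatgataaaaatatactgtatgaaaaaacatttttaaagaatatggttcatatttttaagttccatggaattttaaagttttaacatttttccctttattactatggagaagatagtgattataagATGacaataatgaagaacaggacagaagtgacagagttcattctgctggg
Olfr1447: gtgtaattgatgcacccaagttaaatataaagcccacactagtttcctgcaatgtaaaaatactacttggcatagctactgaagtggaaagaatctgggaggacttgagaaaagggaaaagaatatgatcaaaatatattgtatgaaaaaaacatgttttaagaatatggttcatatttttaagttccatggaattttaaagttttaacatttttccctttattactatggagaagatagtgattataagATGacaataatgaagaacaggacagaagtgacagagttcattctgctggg
Olfr1097: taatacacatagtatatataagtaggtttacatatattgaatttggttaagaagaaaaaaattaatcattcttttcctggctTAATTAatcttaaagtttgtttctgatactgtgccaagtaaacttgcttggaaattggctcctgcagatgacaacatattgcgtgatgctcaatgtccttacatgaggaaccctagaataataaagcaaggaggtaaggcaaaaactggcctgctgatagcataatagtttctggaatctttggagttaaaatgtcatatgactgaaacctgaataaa
Olfr1098: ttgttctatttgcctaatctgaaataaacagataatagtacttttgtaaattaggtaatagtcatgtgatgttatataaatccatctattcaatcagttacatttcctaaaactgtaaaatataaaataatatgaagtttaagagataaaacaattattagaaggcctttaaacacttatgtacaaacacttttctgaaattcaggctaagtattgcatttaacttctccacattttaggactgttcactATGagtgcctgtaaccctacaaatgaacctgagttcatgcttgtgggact
The windows of Olfr1446 and Olfr1447 were 93.0% identical in a global alignment, which was the highest identity among the 46 adjacent pairs with both windows, and their ratios correlated with a Spearman rho of 0.633. The windows of Olfr1097 and Olfr1098 were 44.3% identical, close to the median of 46.2% over those pairs, and the ratios of the pair correlated with a rho of 0.653. Windows were found for 256 members. TAATTA, read on both strands, stood in 39 of them, or 15.2%, against 5.31% of all 27025 windows of the same length. The palindromic core motif of the Ebf factors of olfactory neurons was in 0 of the member windows and in 0.914% of all windows. The gene model began with ATG in 149 member windows, or 58.2%, against 6.75% of all windows, so for many receptors the window lies before the start codon and need not hold the start of transcription.

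The receptor genes stayed close to the pool in the average mouse. The pool held equal portions of the same mice, so the design sets such closeness for most genes, and it is no trait of the receptors. The dyes were never swapped between mouse and pool. A mean away from 0 therefore cannot be told apart from a dye effect on the probe. In a limma fit of each probe's mean ratio against 0, with Benjamini-Hochberg adjustment over 23549 probes, 0 of 302 members passed an adjusted p of 0.05 together with a mean of at least 1.2-fold, where 0.586% of all probes passed, 0.106% above the pool and 0.48% below it. Unadjusted p-values under 0.05 were found for 173 members, or 57.3%, against 70.7% of all probes. Without a minimum fold, 165 members passed, or 54.6%, against 68.4% of all probes. Of these, 137 were above the pool and 28 below it, whereas 36.9% of all probes were called above and 31.5% below.

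The member farthest from the pool was Olfr1226, an odorant receptor gene on chromosome 2. Its ratio ran from -0.307 to 0.144 with a median of -0.0462, and it lay below the pool in 213 of 292 mice. The mean was -0.0591 with an SE of 0.0051 (limma, adjusted p = 3.6e-24), or 1.15-fold. This value came from batch C, where the mean was -0.105, or 1.27-fold, against -0.0152 in A and -0.0169 in B. In batch C alone Olfr1226 was the 1 member that passed the 1.2-fold threshold. In order of adjusted p, not of distance, the next called below the pool were Olfr544 with a mean of -0.0317, Olfr531 with -0.0365, Olfr1243 with -0.0208 and Olfr535 with -0.0179. Above the pool, in the same order, Olfr912 had a mean of 0.024, Olfr449 of 0.0239, Olfr54 of 0.0165, Vmn1r231 of 0.0223 and Olfr1299 of 0.0171. These 9 genes also passed the limma test without a fold minimum, and each mean lay within 1.1-fold of the pool. The member with the highest mean was Olfr1271, at 0.0376 (limma, adjusted p = 0.000322). This belongs to 1 of its 4 probes, where the median was 0.0277 and 3 arrays held 72.2% of the sum of squares. The other probes had medians of -0.00665, -0.0216 and -0.0104, with a rho of 0.0151, -0.000198 and -0.0411 to the first.

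Across mice the receptor genes had a narrow middle and far tails. Their median SD was 0.0488, or 1.12-fold, against 0.0512 for the other named genes. An SD estimated from the interquartile range, which ignores the tails, was 0.0373 against 0.0459. The median ratio of the first to the second was 1.29 for the members and 1.09 for the other genes. The 3 most extreme arrays of a gene held a median of 19.3% of its sum of squares, against 11.3% elsewhere. In 38 members, or 12.6%, they held more than 50%, which was the case in 2.7% of the other named genes. The SD also chose the probe for each gene, so these values are a description without a test.

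**Figure D1:**
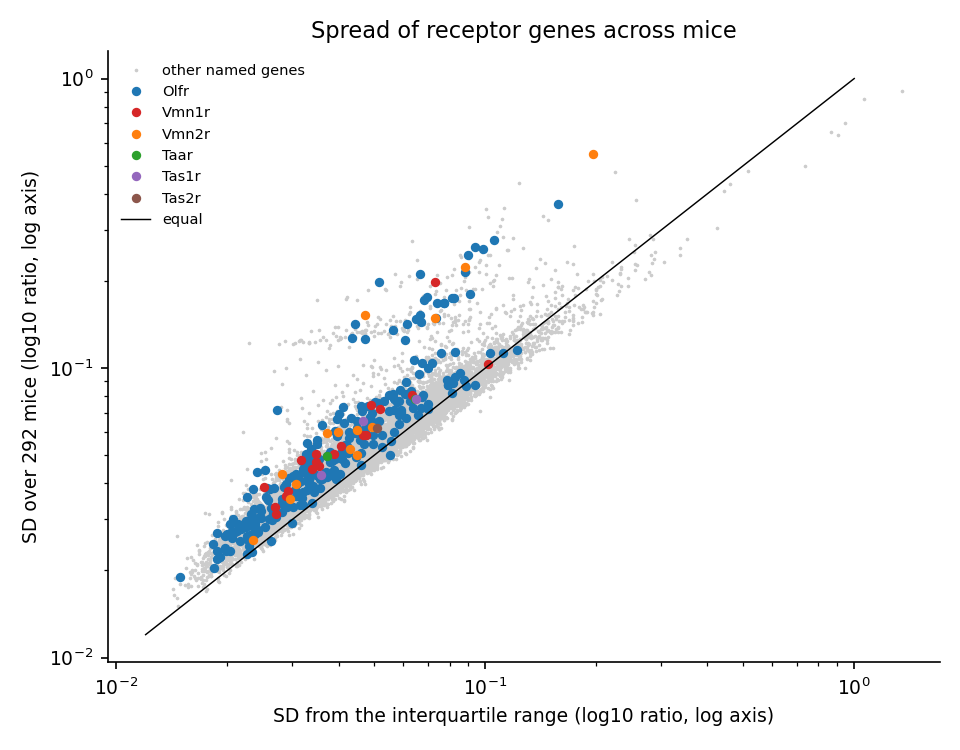
SD over 292 mice (y axis) against the SD from the interquartile range (x axis), both of the log10 ratio on log axes, for 1 probe per gene; grey points are other named genes and colours are the receptor families. The median ratio of the SDs is 1.29 in the receptor genes, and some of them lie on or below the line of equality. Vmn2r122 is the highest receptor gene, with an SD of 0.548 against 0.195.

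Olfr707 had the largest SD of the odorant receptors, with an SD of 0.368, a range from -2.0 to 2.0 and a median of 0.0242. The values -2 and 2 are the limits of the table, a 100-fold ratio either way. Without its 3 most extreme arrays, which held 30.8% of the sum of squares, the SD of Olfr707 was still 0.308. This probe was over 2-fold above the pool in 27 mice and over 2-fold below in 22. The other probes of Olfr707 had SDs of only 0.0628 and 0.0605, with a rho of 0.00591 and -0.0744 to the first, so the wide spread belongs to 1 probe. The odorant receptors that followed owed more of their SD to a few arrays. Olfr128 had an SD of 0.277 and 0.189 without 3 arrays, and Olfr586 had 0.262 and 0.165. Olfr727 went from 0.258 to 0.161, Olfr1033 from 0.246 to 0.139, Olfr1002 from 0.214 to 0.134 and Olfr1018 from 0.212 to 0.108.

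Olfr800 showed this most plainly. Its values ran from -2.0 to 2.0, but the central 90% of mice lay between -0.103 and 0.129, and 3 arrays held 88.1% of the sum of squares. The remaining genes among the 20 with the largest SD were Olfr1034, Olfr1205, Olfr52, Olfr273, Olfr1461, Olfr1271, Olfr871, Olfr801 and Olfr1426, with SDs from 0.18 down to 0.153. In each of these 9 genes 3 arrays held over 60% of the sum of squares. In all, 28 members had at least 1 value at a limit, 29 values at the lower and 28 at the upper, on 41 different arrays. Batch A held 5 of these values, batch B 14 and batch C 38.

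Among the vomeronasal receptors, Vmn2r122 had the largest SD of all members, and as in Olfr707 it remained wide without 3 arrays. Its values ran from -2.0 to 2.0 with a median of 0.0137 and an SD of 0.548, and the SD was 0.511 without 3 arrays. It was over 2-fold above the pool in 34 mice and over 2-fold below in 38, and 7 values stood at each limit. The SD was similar in the batches, at 0.538 (A), 0.575 (B) and 0.54 (C). The gene was read by 10 probes, and none of the other 9 followed the first, with rho from -0.211 to 0.0944. Vmn2r104, another receptor of type 2, had an SD of 0.223 that fell to 0.125 without 3 arrays. Vmn1r28 had the largest SD of the type 1 receptors, 0.199, with 2 mice at the upper limit and 0.0973 without 3 arrays.

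The trace amine and taste receptors stayed near the pool in most mice. Taar1 ran from -0.423 through a median of 0.00652 to 0.423, with an SD of 0.078, and Taar9 from -0.2 through 0.0106 to 0.157. Tas1r1, a part of the umami receptor, ran from -0.295 through -0.00534 to 0.403 with an SD of 0.078. Tas1r2, a part of the sweet receptor, ran from -0.248 through -0.000928 to 0.555, and Tas1r3, the subunit shared by both, from -0.12 through 0.00448 to 0.156. The bitter receptor Tas2r105 ran from -0.196 through -0.00133 to 0.271 with an SD of 0.062. None of these 6 genes had discrete levels or an SD above 0.12, the 95th percentile of the named genes.

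**Figure D2:**
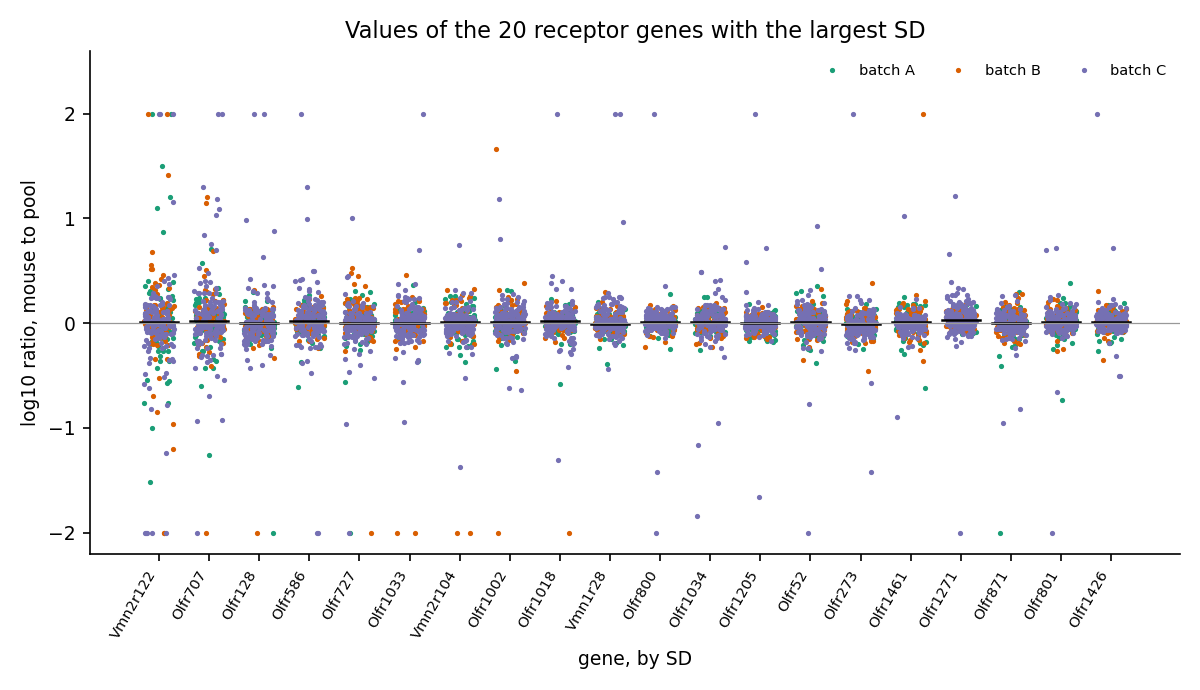
Log10 ratio of mouse to pool (y axis) of each of 292 mice for the 20 receptor genes with the largest SD (x axis, in order of SD); points are coloured by batch and black bars are medians. Apart from Vmn2r122 and Olfr707, the mice crowd near 0 and isolated points reach the limits of -2 and 2.

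Discrete levels, which an F2 cross can give at a locus of large effect, were sought with normal mixtures of 1 to 3 components of equal variance (mclust). A gene was called where the Bayesian information criterion rose by more than 10, levels lay more than 3 within-level SDs apart and each level held at least 5% of mice. This found 27 members, or 8.94%, against 6.57% of all probes. The calls rest on equal variances, since 0 members were called where the levels could differ in variance, a setting fitted to the members only. All 27 had 2 levels with the smaller one on top, a form found in 4.37% of all probes, and 0 had 3 levels, a form found in 0.399%. The upper level held 16 to 41 mice, or 5.48% to 14.0%. The highest exact 95% binomial bound on such a share was 18.6%. The step between levels was 1.16-fold to 1.83-fold with a median of 1.28-fold. Another 98 members gained more than 10 in the criterion without a call, 93 because a level held under 5% of mice and 5 because the levels were too close. The nearest member inside the limit of 3 SDs was Olfr1195 at 3.0, and the nearest outside was Olfr124 at 2.88.

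The strongest case was Olfr171, an odorant receptor gene on chromosome 16. Its ratios ran from -0.086 through a median of -0.00683 to 0.253. The fit put 254 mice around -0.00635 and 38 mice around 0.138, a step of 1.39-fold and 4.1 within-level SDs. The values ran on without a visible gap, since the highest mouse of the lower level stood at 0.0811 and the lowest of the upper at 0.0824. Olfr1428 had 36 mice in its upper level and a step of 1.24-fold, and Olfr411 had 22 mice and the largest step, 1.83-fold, from -0.0261 to 0.237. These 3 genes were also the only members whose levels lay more than 4 SDs apart. Olfr1487, Olfr342 and Olfr1270 followed with upper levels of 28, 27 and 33 mice.

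Of the vomeronasal receptors, 4 of 19 of type 1 and 1 of 14 of type 2 had discrete levels. Vmn1r62 ran from -0.188 through 0.0013 to 0.252, with 16 mice in the upper level and a step of 1.37-fold. Vmn1r56 had 33, Vmn1r148 had 25 and Vmn1r49 had 21 mice there. The others among the 15 strongest were Olfr531, Olfr1232, Olfr1133, Olfr315 and Olfr1221, with 17 to 41 mice in the upper level. Of the 10 members with levels and more than 1 probe, 5 had levels on another probe as well.

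The upper levels of different receptor genes often fell on the same mice. Sharing among the other probes with levels is not given here, so this is not read as particular to receptor genes. Of the 292 mice, 187 were in no upper level and 105 in at least 1. The 30 mice that were in at least 10 upper levels held 73.4% of the 684 places, and 1 mouse was in 26 of the 27. The batch-centred rho between members with levels had a median of 0.561, and 350 of 351 pairs were above 0, although the genes lie on many chromosomes. The number of upper levels a mouse was in correlated with the spread of its array (Pearson r = 0.404, Spearman rho = 0.447, n = 292; permutation p = 1e-05 for each, two-sided, the smallest that 100000 resamples can give; adjusted p = 1.33e-05 over 4 relations). Without the 2 arrays farthest from the median spread r was 0.465, and the batches taken singly gave 0.548 (A), 0.447 (B) and 0.35 (C). The levels and the spread come from values of the same arrays, and the permutation did not keep mice within batches. Its p-value is therefore no independent support. Array spread was higher where more receptor genes were in their upper level, and its part in the levels was not tested. Leaving out the 13 arrays with a spread over 0.1 gave 29 members with levels. Scaling every array to the same spread left 5, namely Olfr171, Olfr1428, Olfr411, Olfr342 and Olfr531, all of them among the 27.

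**Figure D3:**
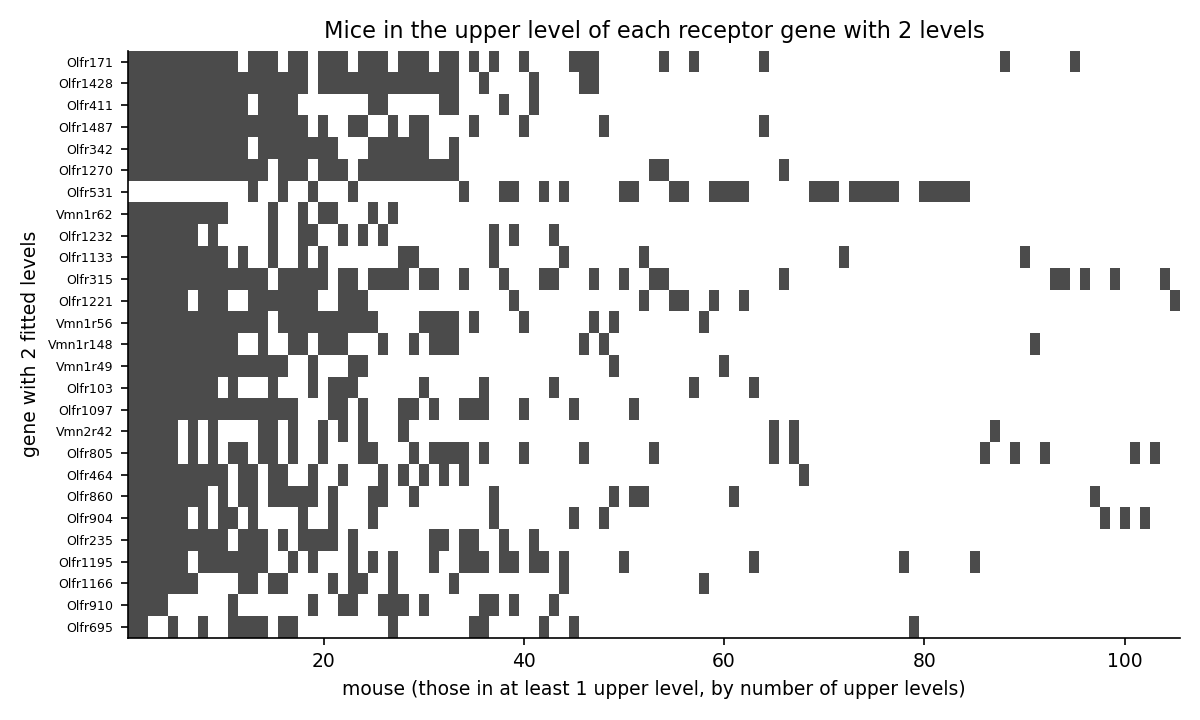
Dark cells mark the mice (x axis, the 105 in at least 1 upper level, ordered by how many) in the upper level of each of the 27 receptor genes with 2 levels (y axis, ordered by gain in the criterion). The same mice on the left fill most rows, while the row of Olfr531 is filled mainly further to the right.

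Olfr531, on chromosome 7, stood apart from this shared pattern, an observation made after its values were seen. Its ratios ran from -0.165 through -0.0514 to 0.254, with 262 mice around -0.0549 and 30 mice around 0.12, a step of 1.5-fold. Of the 30 mice in its upper level, 13 were in no other upper level and 4 were in 10 or more of the others. Its rho with the other 26 members with levels lay between -0.0888 and 0.333, with a median of 0.146. The upper level held 16 batch A mice, 14 batch B mice and 0 batch C mice, where the highest mouse stood at 0.0242. Within each batch fitted alone, the levels of Olfr531 lay under 3 SDs apart and were not called. The named gene most like it was Hnrnpk on chromosome 13, with a batch-centred rho of 0.806 and 0.863, 0.841 and 0.756 within batches A, B and C. Scgb1c1, which lies 20 places away on chromosome 7, followed Olfr531 with a rho of 0.743, and Coro1c on chromosome 5 with 0.797.

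For the 6 members with the largest gain in the criterion, the 3 most similar named genes lay on other chromosomes wherever a chromosome was matched to them. Over 292 mice Olfr171 was most like Rapgef5 on chromosome 12 (batch-centred rho 0.856), Fbxl13 (0.833) and Gabrr2 on chromosome 4 (0.82). Olfr1428 on chromosome 19 was most like Rbpj on chromosome 5 (0.858), Prom2 on chromosome 2 (0.848) and Fv1 on chromosome 4 (0.833). Olfr411 on chromosome 11 was most like Sh2d5 on chromosome 4 (0.904), Tbc1d32 on chromosome 10 (0.878) and Crybb3 on chromosome 5 (0.875). Olfr1487 was most like Tusc5 (0.78), Prom2 (0.77) and Slc23a2 (0.769), Olfr342 most like Olfr1428 (0.772), Peg10 (0.765) and Fbxl13 (0.763), and Olfr1270 most like 4933436H12Rik (0.832), Ms4a20 (0.823) and BC106175 (0.823). Genes with levels within 10 places of these 6 were Olfr235, 7 places from Olfr1428 with a rho of 0.671, and, near Olfr411, Rap1gap2 with 0.194 and Srr with 0.0414.

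Some receptor genes followed another gene almost exactly, in a share near that of the other named genes. Those named here were chosen after their values were seen. The best absolute rho with any named gene exceeded 0.9 in 15 members, or 4.97%, against 3.97% of the other named genes. Olfr957 on chromosome 9 and Nutm1 on chromosome 2 had a rho of 0.979, and it was 0.984, 0.986 and 0.971 within the batches. Olfr957 itself ran from -0.221 through 0.0199 to 0.259, and 75 named genes followed it with an absolute rho over 0.9. Olfr702 on chromosome 7 followed Pou3f2 on chromosome 4 with 0.973, Olfr76 on chromosome 19 followed Irf2bp1 on chromosome 7 with 0.96, and Olfr433 on chromosome 1 followed Mcoln2 on chromosome 3 with 0.957. Olfr140 and Olfr20, on chromosomes 2 and 11, were both most like the keratin gene Krt18 on chromosome 15, with 0.953 and 0.916. In 14 of the 15 the most similar gene lay on another chromosome, and in the remaining case, Olfr272, no chromosome was matched to it. The matching share among the other named genes is not given here, so this is not read as particular to receptor genes.

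Most receptor genes next to each other on a chromosome varied together only weakly. The 65 pairs of members next to each other in gene order had a median batch-centred rho of 0.0935, and 40 of the 65 were above 0. Members on different chromosomes had a median of 0.0305 over 38854 pairs. The closest adjacent pairs were Olfr1097 with Olfr1098 (0.653), Olfr1446 with Olfr1447 (0.633), Olfr11 with Olfr1361 (0.581), Olfr1508 with Olfr1507 (0.557) and Olfr726 with Olfr725 (0.417). For Olfr1097 and Olfr1098 the batches A, B and C gave a rho of 0.644, 0.67 and 0.669, and for Olfr1446 and Olfr1447 it was 0.498, 0.498 and 0.741. The median for adjacent pairs depended on the measure and was 0.0277 as Pearson's r.

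Closeness of the probe numbers went with similarity even between chromosomes. Members on different chromosomes had a median rho of 0.101 where the probe numbers differed by at most 300 and of -0.012 where they differed by more than 8000. The named gene most like a receptor gene was within 1000 probe numbers in 141 members, or 46.7%, where 8.32% of the named genes lie. Among the other named genes this share was 19.3%. The most similar gene was within 10 places in gene order in 2 members, or 0.662%, against 1.68% of the other named genes. The sources used here do not say what the probe numbers stand for, and their part in these correlations was not tested.

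**Figure D4:**
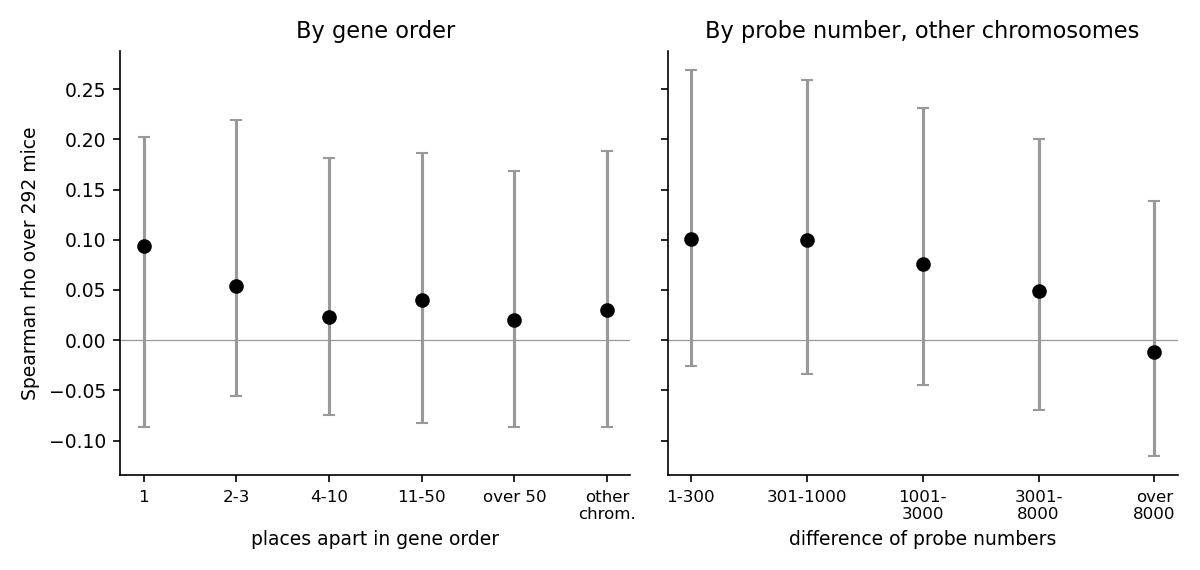
Batch-centred Spearman rho over 292 mice between pairs of receptor genes (y axis), by places apart in gene order (left) and, for pairs on different chromosomes, by difference of probe numbers (right); points are medians and bars are the interquartile range over pairs. The median falls from 0.101 to -0.012 with the difference of probe numbers, and the bars of all distances in gene order overlap widely.

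Probes for the same receptor gene rarely moved together. In the 80 members with several probes the median rho between probes was 0.101, beside 0.102 for the 1227 other named genes with several probes. It exceeded 0.5 in 6 members, or 7.5%, against 16.1% of the others. These were Olfr433 (0.795), Olfr171 (0.703), Olfr464 (0.677), Olfr1126 (0.582), Olfr1487 (0.558) and Olfr544 (0.555). The probes of Olfr433 had a rho of 0.909 (A), 0.916 (B) and 0.624 (C) in the batches. At the other end stood Olfr446 with a median of -0.304 over its 3 probes, Olfr140 with -0.254, Olfr491 with -0.243 and Vmn2r81 with -0.217. For Olfr171, Olfr464 and Olfr1487 both probes had discrete levels in the fit with equal variances.

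A share of the receptor genes differed between batches. In limma's F-test 109 members passed an adjusted p of 0.05, or 36.1%, against 64.0% of all probes. Batch C had the highest mean in 68 of the 109 and the lowest in 39. The differences were small, with a median of 1.06-fold and at most 1.23-fold between the extreme batch means. Olfr544 differed most clearly, with means of 0.00216 in A, 0.00431 in B and -0.0692 in C (limma, adjusted p = 3.31e-45). Olfr1243, Olfr1226 and Olfr531 were likewise lowest in batch C, and Olfr912 was highest there, with means of 0.00672, -0.000146 and 0.0463.

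Many receptor genes rose with markers of the olfactory bulb, the brain region that receives the axons of the receptor neurons. The score was the mean standardised ratio of 11 bulb markers, among them Cdhr1 and Tbx21 of the output neurons, and it held no receptor gene. Across mice it ran from -1.13 to 2.29 with an SD of 0.453. With batch as a covariate, limma called a slope on this score in 112 members, or 37.1%, against 56.8% of all probes. Of these, 101 rose and 11 fell, whereas 33.3% of all probes rose and 23.6% fell. The share that rose, 33.4%, was therefore near that of all probes. The slope kept its sign within each batch in 103 of the 112, and 9 members were called within each batch alone. All 27 members with discrete levels were among those that rose. The share that rose among all probes with levels is not given here, so this is not read as particular to receptor genes.

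The clearest riser was Vmn1r235, a vomeronasal receptor gene. Its ratios ran from -0.101 through -0.00148 to 0.273, and its slope was 0.043 per unit of the score with an SE of 0.00525 (limma, adjusted p = 2.02e-13), or 1.1-fold. The batches A, B and C gave slopes of 0.0315, 0.0587 and 0.0406. Olfr1195 rose by 0.0291, Olfr1395 by 0.0227, Olfr544 by 0.0273 and Olfr235 by 0.0286 per unit, each with the same sign in every batch. Of the genes that fell, Olfr912 had a slope of -0.0307 with an SE of 0.00456 (limma, adjusted p = 8.77e-10), from -0.0543 in batch B to -0.00328 in batch C. Olfr449, Olfr446, Vmn2r104 and Olfr1111 came next, with slopes of -0.0236, -0.0469, -0.101 and -0.0131. Taar1 and Tas1r2 rose as well, with slopes of 0.0415 and 0.0361 (limma, adjusted p = 0.000113 and 5.4e-05).

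The bulb result depended on the scale of the arrays. With all arrays scaled to the same spread, 63 members were called, or 20.9%, against 45.2% of all probes, and 53 rose while 10 fell. Of these, 62 were among the 112, and 0 of the 112 turned sign. All 27 members with levels had been called as rising with the bulb score in the same mice. A correlation of the score with the number of upper levels a mouse was in therefore largely restates those calls and is no further result. It had a Pearson r of 0.3 and a Spearman rho of 0.291 (n = 292, permutation p = 1e-05 for each, two-sided, adjusted p = 1.33e-05 over the same 4 relations). Without the 2 mice farthest from the median score r was 0.333, and the batches taken singly gave 0.307 (A), 0.379 (B) and 0.308 (C). Neither the part of bulb tissue nor that of array spread in the slopes was tested.

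**Figure D5:**
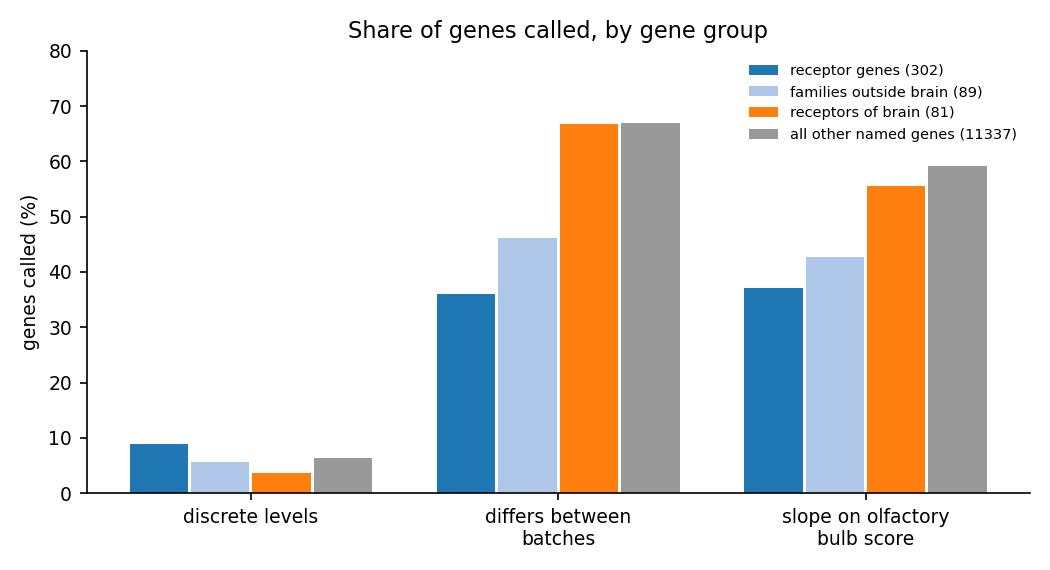
Percentage of genes called (y axis, from 0) for discrete levels, a difference between batches and a slope on the bulb score. The groups are 302 receptor genes, 89 genes of families known outside the brain, 81 genes with brain receptor prefixes and 11337 other named genes. Of the 81, 42 have the prefix Gpr, and their expression in brain was not checked. The bars of the receptor genes are the lowest for the batch difference (36.1%) and for the bulb slope (37.1%) and the highest for discrete levels (8.94%).

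Gene families known from tissues outside the brain were set beside the receptor genes. They comprised 89 genes of keratins, keratin-associated proteins, defensins, pregnancy-specific glycoproteins, cornified envelope proteins, interferon alpha and carcinoembryonic antigen-related molecules. Their median SD was 0.0419, with a ratio of 1.21 to the SD from the interquartile range, and 5.62% had discrete levels, 46.1% differed between batches and 42.7% had a bulb slope. A further 81 genes were chosen by symbol prefixes of receptors known in brain, such as those for serotonin, dopamine and glutamate. Of these, 42 had the prefix Gpr, against 15 with Htr, 5 with Grm and 3 with Drd. Their expression in brain was not checked. Over the 81 genes the median SD was 0.0475 and the ratio 1.13. In this group 3.7% had levels, 66.7% differed between batches and 55.6% had a bulb slope. The differences between these groups were not tested.

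A score of 12 pituitary markers was examined because their hormone genes spread widely across these mice. In limma 0 of 302 members had a slope at an adjusted p of 0.05, where 0.803% of all probes had one, 0.752% rising and 0.051% falling. An unadjusted p under 0.05 was found for 14 members, or 4.64%, against 9.69% of all probes. The prolactin gene Prl, which is among the markers, had an SD of 0.852 across the same mice, above every receptor gene.

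The transduction genes of the sensory neurons were measured on the same arrays. Omp, the marker of mature olfactory neurons, had an SD of 0.0378, a mean of -0.00233 and a bulb slope of 0.00528 that did not pass (limma, adjusted p = 0.37). Of 25 measured genes of olfactory transduction and receptor neurons, 5 rose with the bulb score and 5 fell, which was 20.0% each against 33.3% and 23.6% of all probes. Arrb2, an arrestin, rose with a slope of 0.0461, Lhx2 with 0.0616 and Gng13 with 0.0752, while the receptor-trafficking relative Reep1 fell with -0.0382. Gnal fell with a slope of -0.0195 and the channel gene Cnga2 with -0.0218, the latter not with scaled arrays (limma, adjusted p = 0.473), and Adcy3 had a slope of -0.000624 that did not pass. Several of these, Gnal and Adcy3 among them, are also expressed by brain neurons. Of 7 genes of the supporting cells of the olfactory epithelium, 3 rose and 1 fell, or 42.9% and 14.3%. The cytochrome Cyp2a5 rose with 0.0239 and the mucin Muc5b with 0.019.

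Of 9 measured genes of vomeronasal transduction, 2 rose and 2 fell with the bulb score, or 22.2% each, where 33.3% of all probes rose and 23.6% fell. Trpc2, the channel of vomeronasal neurons, rose with a slope of 0.0202, and B2m, a partner of class I molecules in every tissue, fell with -0.0467. Of 16 genes of taste transduction, 3 rose and 4 fell, or 18.8% and 25%. Gnat3 and Trpm5 had slopes of -0.0128 and -0.0055 that did not pass (limma, adjusted p = 0.252 and 0.385), and the synaptic gene Snap25, which all neurons express, had a slope of -0.0461 that turned between batches, at -0.0711 in A, -0.104 in B and 0.0254 in C. In each of these 4 lists 0 genes reached 1.2-fold against the pool.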

How the data were processed

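The 292 brains were hybridised to 292 arrays with 2 colours. Per the labels, total RNA of each mouse was labelled with Cy3 and the pool with Cy5 on every array. The deposited table was read as log10 ratios, mouse over pool, and how the authors corrected and normalized them is not given in the sources used here. The base and direction are not stated either. Read as log10 of mouse over pool, the mean linear ratio of Prl was 0.917, near the value of 1 that a pool of equal portions gives. With the sign turned it was 20.8. For Gh, Cga and Tshb it was 1.31, 1.21 and 1.15, and 5.16, 7.02 and 2.74 with the sign turned. The direction is therefore called likely. Read as log2 of mouse over pool, Prl, Gh, Cga and Tshb gave 0.668, 0.843, 0.811 and 0.894. These lie nearer 1 than the log10 values for Gh, Cga and Tshb but not for Prl, so the hormone genes do not settle the base. Over all probes, array pairs had a Pearson r from -0.638 to 0.795, and 3.39% lay under -0.3; the direction was kept, since the labels state the dyes and each mouse contributes to the pool.

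Of 23574 probes, 25 missing on over 5% of arrays were left out and 252 single gaps were set to the mean of their probe. Platform annotation gave 13647 probes 1 gene, 48 several and 9854 none, and 12649 matched the gene table of GRCm38.p6, as did 300 of the 302 members. Sets of arrays, called batches, were defined by the probes missing on at least 20 arrays. Tests were fitted on 23549 probes with limma 3.58.1 in R 4.3.3 and adjusted by Benjamini-Hochberg, and mixtures with mclust 6.1.1. Correlations between genes or probes were Spearman's rho on values with batch means removed, unless said otherwise. The 4 relations with array spread or the bulb score were computed without removing batch means. Their permutations shuffled all 292 mice. The functions were checked on simulated data.

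The members, gene lists and tests were chosen with earlier results of these data known. Genes are named by rule: the 20 with the largest SD, the 15 with levels and the largest gain in the criterion, the largest SD per family, the 5 smallest adjusted p per test and direction, the 3 genes most like each of the 6 strongest members with levels, the 5 closest adjacent pairs, members with several probes, and the leading genes of each list. Others are said to be chosen after their values were seen. No groups of mice were compared. The alternatives are in the closing section; leaving out the arrays with a spread over 0.1 was added after seeing the data.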

Additional observations from a re-analysis of the deposited data

How the results depend on the processing

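No paired analysis was possible because the 292 mice form 1 group. The count of 0 members away from the pool became 165 without a minimum fold and 1, Olfr1226, in batch C alone, and stayed 0 under the other 6 alternatives. The count of 27 members with discrete levels became 3 at more than 4 SDs, 8 where each level had to hold 10% of mice, 0 with unequal variances, 5 with scaled arrays, 3 in batch A alone and 12 in batch B alone; batch C alone shared 20 of the 27. The other 6 alternatives gave counts within 1.5 times of it. The count of 109 that differed between batches stayed within 1.5 times under all 4 alternatives run. The count of 112 with a bulb slope became 31 in batch A alone, 47 in batch C alone and 63 with scaled arrays. The count of 0 with a pituitary slope became 1, Vmn1r228, without the batch term and 2, Vmn1r228 and Olfr695, with scaled arrays. The median SD of 0.0488 became 0.0404 with the probe of smallest SD, 0.0437 with scaled arrays and 0.0373 from the interquartile range. The median rho of adjacent members, 0.0935, became 0.0753 on deposited values, 0.0708 with scaled arrays and 0.0277 as Pearson's r. Of the 15 named genes with levels, 15 kept the call without batch means, 13 in batch C alone, 5 with scaled arrays and 0 with unequal variances. The causes were not tested. Signal over background is unknown, which limits what any ratio of these genes can show.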

Other observations

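The mean ratio over all 302 receptor genes differed little between mice. It ran from -0.044 to 0.0541 with a median of 0.00436 and an SD of 0.0125. The highest mouse was 1.13-fold above the pool, and the batch medians were 0.00061 in A, 0.00152 in B and 0.00673 in C. This mean correlated with the spread of the array (Pearson r = 0.267, Spearman rho = 0.35, n = 292; permutation p = 1e-05 for each, two-sided; adjusted p = 1.33e-05 over 4 relations), and r was 0.348 without the 2 arrays farthest from the median spread. Within batches A, B and C it was 0.364, 0.162 and 0.231. The mean and the spread come from the same arrays, so this p-value is no independent support. With the bulb score the correlation was lower (Pearson r = 0.194, permutation p = 0.00089, adjusted p = 0.00102; Spearman rho = 0.191, permutation p = 0.00105, adjusted p = 0.00105), with r of 0.252, 0.185 and 0.216 within the batches and 0.23 without the 2 mice farthest from the median score.

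Olfr433 on chromosome 1, whose probes moved together more closely than those of any other receptor gene measured by several probes, also followed a neighbour. Ifi203, an interferon-inducible gene 3 places away, had a batch-centred rho of 0.865 with it, below the 0.957 of Mcoln2 on chromosome 3. Ifi203 was chosen after its values were seen, since no other member had a higher rho with a gene within 10 places. The strongest absolute rho with a gene within 10 places had a median of 0.273 over 295 members. It was 0.412 over 10333 other named genes, so following a neighbour is not read as particular to receptor genes. Olfr433 ran from -0.259 through 0.00794 to 0.304, had no discrete levels, and 21 named genes followed it with an absolute rho over 0.9.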
